A study of Mus musculus with 9 samples.

Results

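The 34 genes described here belong to the p53 network: *Trp53*, which codes for p53 itself, and 33 of the genes known to respond to it. They were looked up by mouse gene symbol among the 55416 genes counted in E16.5 mouse lenses, all 34 were found, and all passed the filter on low counts. The list had been meant to hold targets outside cell death, but 8 of its genes (*Fas*, *Tnfrsf10b*, *Eda2r*, *Apaf1*, *Pidd1*, *Aen*, *Ei24* and *Perp*) are best known for their part in apoptosis, so it is called the p53 list below. Its genes were put together with the difference between the genotypes in these same libraries already known. Their values are therefore given as a description, with fold changes and standard errors but without p-values, and a gene is said to have risen or fallen where its adjusted p in the fit over all genes was below 0.05.

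The study asked what ATF4, a transcription factor of the integrated stress response, does in the embryonic lens. Each library was made from the single pair of whole lenses of 1 embryo at E16.5, with 4 *Atf4* null and 5 wildtype embryos from crosses of heterozygotes. The null embryos were homozygous for Atf4tm1Tow, in which a neomycin cassette replaces coding exons, so they lacked ATF4 in every tissue and not in the lens alone. Both genotypes were of a mixed C57Bl/6 and 129 background, animals of both sexes were used in the study, and no agent was given. Replicate numbers only name the libraries here.

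p53 is held at a low level in unstressed cells by MDM2, a ubiquitin ligase that marks it for degradation, with the help of the related protein MDM4. After DNA damage or other stress p53 escapes from them and activates genes for growth arrest, DNA repair, metabolism and death, as well as *Mdm2* itself, which closes a negative feedback loop. In the lens, an epithelial sheet on the anterior face supplies cells that leave the cell cycle and elongate into fibers. Most p53 targets also have other regulators, so a change in their mRNA does not by itself report the activity of p53.

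The libraries held 7440807 to 8696699 gene counts in the *Atf4* null and 8409779 to 8906996 in the wildtype. *Atf4* was at 155, 141, 142, 129 and 119 CPM (reads of the gene relative to the TMM-scaled library size) in wildtype replicates 1 to 5 and at 3.29, 8.64, 10.6 and 0.582 CPM in null replicates 1 to 4. A list of 12 lens markers took 10.1% to 10.6% of the counts of wildtype replicates 1 to 4 and 5.53% to 10.5% of the null libraries, lowest in null replicate 1. *Lim2*, a fiber membrane protein gene on that list, had no count in any library. Wildtype replicate 5 stood apart, with 0.982% of its counts from skeletal muscle markers and 1.67% from mesenchyme markers, against at most 0.012% and 0.0425% in the other wildtype libraries, and its lens markers took 6.55%. Mesenchyme markers took 0.0416% to 0.087% of the null counts, with 10 of 12 markers at a higher mean than in wildtype replicates 1 to 4, and pigment cell markers took 0.00398% to 0.0117%, against 0.00186% to 0.00397% in those 4 libraries. All 5 surface ectoderm markers also had a higher null mean, while 0 of 8 erythroid markers (0.021% to 0.0262% in the null, 0.0214% to 0.0699% in those 4 libraries) and 0 of 8 endothelial markers (0.0158% to 0.0395% and 0.0293% to 0.0404%) did. The part of these shares in the levels of the p53 list was not tested. Because wildtype replicate 5 stood apart, counts of genes that passed the test are given with and without it, as are the fold changes of the p53 list in the plot by function. The 11 retina markers took 0.0242% to 0.0918% of the null counts, most in null replicate 1, and 0.0144% to 0.0251% of the wildtype counts. In whole lenses, fewer cells of a type and less RNA per cell cannot be told apart.

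Most genes of the p53 list had a higher mean level in lenses without ATF4. Null over wildtype, the log2 fold change was positive for 30 of the 34 genes, with a median of 0.58, against 0.00072 over all 14903 genes tested. Of the 34, 12 rose, 1 fell (*Sesn1*) and 21 did not pass the test. Over all genes tested, 2.23% were higher and 3.67% lower by the same rule, and since these data had a part in the choice of the list, nothing is read from the difference. In 14 genes of the list every null library was above every wildtype library, and in 1 every null library was below, as were 4.65% and 5.58% of all genes tested. Without wildtype replicate 5, 13 genes were higher, *Polk* being added, and *Sesn1* was still lower, while over all genes 3.37% were higher and 4.96% lower. The null libraries then lay above all wildtype libraries in 17 genes, with *Apaf1*, *Polk* and *Ercc5* added, and below in 1, against 6.67% and 8.75% of all genes. The median of the list was then 0.69 and that of all genes 0.03. The 12 risen genes passed the test in both cases, with log2 fold changes of 1.18 for *Ccng1*, 0.70 for *Mdm2*, 3.55 for *Phlda3*, 1.64 for *Zmat3* and 1.51 for *Psrc1* without that library. The number of risen genes came to 7 without null replicate 3 and to 8 without null replicate 2.

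**Figure D1:**
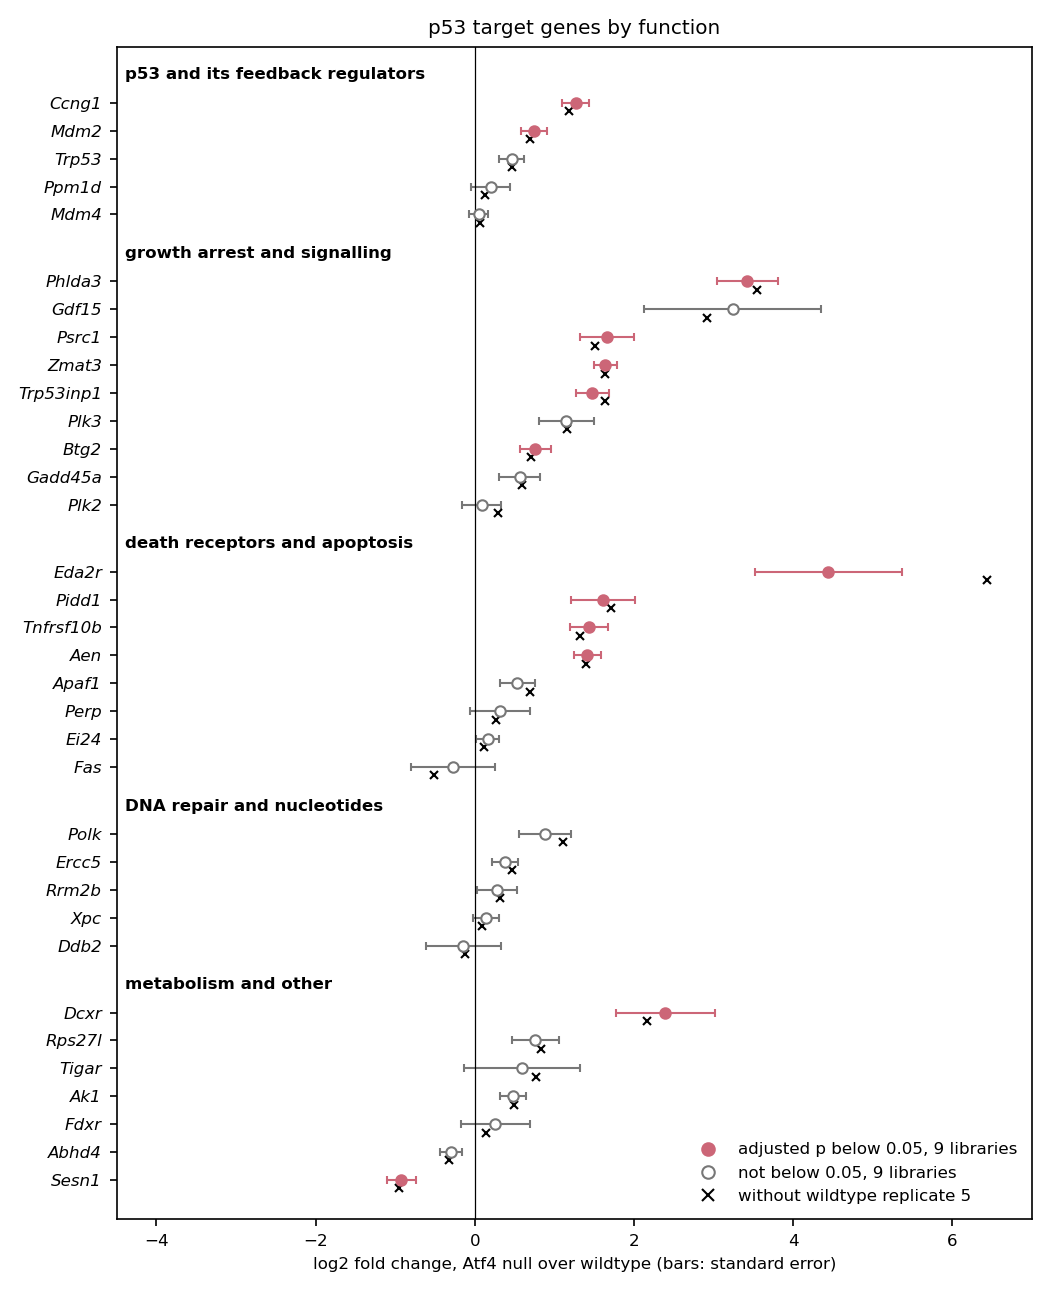
Log2 fold change of *Atf4* null over wildtype for the 34 genes, grouped by function, with bars for the standard error. Filled circles mark genes with an adjusted p below 0.05 in all 9 libraries and crosses the value without wildtype replicate 5. *Eda2r* lies farthest to the right at 4.44 and *Sesn1* farthest to the left at -0.92.

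p53 binds DNA as a tetramer, at a pair of 10-base units that make up the p53 consensus. The 2500 bases on each side of the start of the canonical transcript were searched for both units lying next to each other, with the C and G at the core of each unit fixed and up to 2 mismatches over the 20 bases. The consensus is its own reverse complement, so 1 search covers both strands. At least 1 match was found in 10 of the 34 genes (29.4%), 13 matches in all, in 698 of 12851 protein-coding genes tested (5.43%), and in 10 of 43 other p53 targets described further on (23.3%). With at most 1 mismatch the shares were 14.7%, 0.801% and 6.98%. These genes are known as p53 targets, so the higher share belongs to the way such a list is made and is no result about these lenses. Matches lay near 5 of the 12 risen genes (41.7%) and 5 of the other 22 (22.7%), and with at most 1 mismatch near 3 (25%) and 2 (9.09%). These are few genes, split by their outcome in these same libraries, so nothing is read from the difference. Matches near these risen genes, all but 1 of them, are shown in the direction of the gene, with the core of each unit in capitals, since the results turn on these genes.
Zmat3, intron, chr3:32418480-32418499, minus strand, 0 mismatches: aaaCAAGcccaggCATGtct
Ccng1, intron, chr11:40645763-40645782, minus strand, 1 mismatch: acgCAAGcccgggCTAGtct
Psrc1, intron, chr3:108291972-108291991, plus strand, 1 mismatch: gggCATGttgaggCATGccc
Eda2r, intron, chrX:96420140-96420159, minus strand, 2 mismatches: gggCAAGtccgggCCTGtgt
Pidd1, exon, chr7:141023216-141023235, minus strand, 2 mismatches: tggCAAGctgggaCATGtct
Pidd1, exon, chr7:141023239-141023258, minus strand, 2 mismatches: agcCTTGcctaagCAGGctt

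All positions are of GRCm39, and the sequences were read from that genome. *Zmat3* carried the only match without a mismatch, as did 0.109% of the protein-coding genes. Among genes that did not pass the test, *Gdf15*, *Rps27l*, *Fas*, *Perp* and *Plk2* had a match, and the first of these lay in an exon with 1 mismatch.
Gdf15, exon, chr8:71084616-71084635, minus strand, 1 mismatch: tgaCTTGcctgaaCTTGcct
Rps27l, intron, chr9:66853578-66853597, plus strand, 1 mismatch: gggCTTGttgagaCTTGtcc
Fas, intron, chr19:34269764-34269783, plus strand, 2 mismatches: gggCATGtacaaaCATGtca

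The presence of a match is a description of the letters and not evidence of binding, and no match says only that these letters are not in this window. *Phlda3*, *Mdm2* and *Aen*, all of which rose, had none within 2500 bases. The element TGATGCAA, searched on both strands within 500 bases of the start as a form of the ATF4 binding site, was found in 0 of the 34 genes and in 200 of 12851 protein-coding genes (1.56%).

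**Figure D2:**
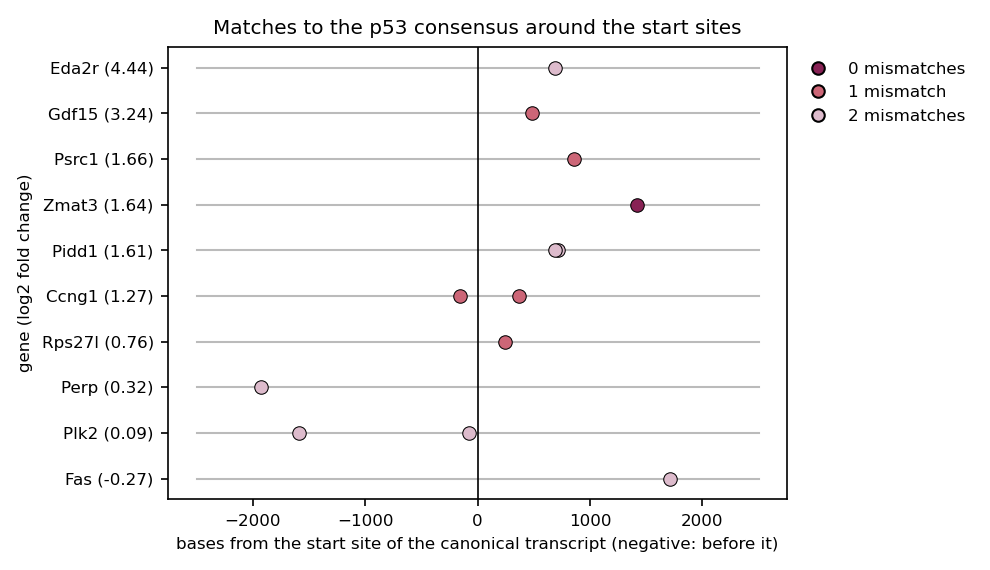
Position of each match to the p53 consensus relative to the transcript start, in bases, for the 10 genes with a match, ordered by log2 fold change (in brackets). Colour gives the number of mismatches. Of the 13 matches 9 lie after the start within 1714 bases, and the match of *Zmat3* is the only one with 0 mismatches.

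Among *Trp53* and the genes that feed back on p53, *Ccng1* and *Mdm2* rose and the other 3 did not pass the test, with a median log2 fold change of 0.46 over the 5. *Ccng1* (ENSMUSG00000020326, chr11:40639377-40646148) codes for cyclin G1, which brings a phosphatase to MDM2, and was the most abundant of the 34 per length, at 22.6 FPKM (CPM per kilobase of exon) in the wildtype and 54.3 in the null. Its level in wildtype replicates 1 to 5 was 93.7, 109, 103, 117 and 74.1 CPM. In null replicates 1 to 4 it was 175, 236, 235 and 311 CPM. Every null library lay above every wildtype library, and the change was 1.27 ± 0.17 (log2, SE, n = 4 null and 5 wildtype), or 2.41-fold.

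*Mdm2* (ENSMUSG00000020184, chr10:117524780-117546730) was at 53.9, 61.6, 52.5, 61.6 and 47.2 CPM in the wildtype and at 61.0, 112, 91.1 and 107 CPM in the null libraries. Null replicate 1 was no higher than the highest wildtype libraries, while the other 3 null libraries were above all 5. The log2 fold change was 0.74 ± 0.17 (SE), and the call was kept in 11 of 16 other settings. *Trp53* (ENSMUSG00000059552, chr11:69469669-69482701) was at 28.0, 32.2, 23.96, 24.3 and 26.9 CPM in the wildtype and at 37.4, 38.6, 35.9 and 37.6 CPM in the null. Its groups did not overlap, but the difference of 0.46 ± 0.15 (log2, SE) did not pass the test. *Mdm4*, the other inhibitor of p53, was at 124, 96.3, 120.1, 122 and 124 CPM in the wildtype and at 142, 126, 109 and 107 CPM in the null. The genotypes overlapped and had almost the same mean, 117 ± 11.8 CPM (SD, n = 5) in the wildtype and 121 ± 16.4 CPM (SD, n = 4) in the null. *Ppm1d*, a phosphatase that turns p53 signalling off, had a log2 fold change of 0.20 ± 0.25 (SE) with overlapping groups.

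Of 9 genes for growth arrest and signalling, 5 rose (*Phlda3*, *Psrc1*, *Zmat3*, *Trp53inp1* and *Btg2*), and the median log2 fold change of 1.48 was the highest of the groups. *Phlda3* (ENSMUSG00000041801, chr1:135693809-135697686) codes for a small protein that keeps the kinase AKT from the membrane. It was at 3.21, 1.23, 0.865, 3.54 and 3.11 CPM in the wildtype, from 25, 10, 7, 28 and 29 counts. In the null libraries it was at 17.7, 25.7, 29.5 and 30.4 CPM. The lowest null library was thus far above the highest wildtype library, and the log2 fold change was 3.42 ± 0.39 (SE), or 10.7-fold. *Zmat3* (ENSMUSG00000027663, chr3:32388941-32420163), an RNA-binding zinc finger protein gene, had the smallest SE of the risen genes. Its wildtype libraries held 25.4, 29.5, 22.2, 26.5 and 25.0 CPM and its null libraries 74.8, 74.9, 76.3 and 95.1 CPM, a change of 1.64 ± 0.14 (log2, SE). The null libraries were nearly level except for null replicate 4.

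*Trp53inp1* (ENSMUSG00000028211, chr4:11156412-11175230), a stress protein that acts on p53 and in autophagy, was at 15.0, 17.9, 14.6, 12.8 and 23.5 CPM in the wildtype. Its null libraries were at 46.3, 52.0, 53.7 and 34.8 CPM, all above wildtype replicate 5, the highest of the wildtype. The log2 fold change was 1.48 ± 0.21 (SE) and 1.63 without that library. *Psrc1* (ENSMUSG00000068744, chr3:108288765-108295547), which codes for a microtubule-binding protein of the mitotic spindle, was at 6.42, 3.46, 3.95, 7.21 and 2.57 CPM in the wildtype. In the null it was at 16.05, 16.08, 15.7 and 11.9 CPM, again without overlap, with a log2 fold change of 1.66 ± 0.34 (SE). *Btg2* (ENSMUSG00000020423, chr1:134002908-134015033), an inhibitor of proliferation that speeds the loss of poly(A) tails, was at 25.9, 29.1, 33.1, 38.9 and 25.9 CPM in the wildtype and at 48.6, 44.5, 71.8 and 42.4 CPM in the null. The groups of *Btg2* were close, 38.9 against 42.4 CPM, and its call at 0.76 ± 0.19 (log2, SE) was kept in 10 of 16 other settings.

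The other 4 genes of this group did not pass the test. *Gdf15*, a secreted cytokine that the integrated stress response can also induce, had 0, 5, 10, 0 and 0 counts in the wildtype and 13, 60, 34 and 15 in the null. In CPM this was at most 1.24 in the wildtype and 1.30 to 7.20 in the null, and the fitted log2 fold change of 3.24 ± 1.11 (SE) depends on the prior count. It was 4.43 without wildtype replicate 3 and 2.66 without null replicate 2, and it passed the test in DESeq2 and exactTest only. *Plk3*, a stress-responsive polo-like kinase gene, was at 16.3, 7.03, 6.05, 10.3 and 9.96 CPM in the wildtype and at 14.9, 13.2, 27.5 and 32.8 CPM in the null. Its groups overlapped through wildtype replicate 1, and its difference of 1.15 ± 0.34 (log2, SE) passed the test without that library and in 4 of the other settings. *Gadd45a*, a stress sensor that binds cell cycle kinases, had a log2 fold change of 0.56 ± 0.26 (SE), with null replicate 1 highest at 45.6 CPM and null replicate 4 at 17.0 CPM. *Plk2*, the related kinase gene, had 0.09 ± 0.24 (log2, SE), and its highest library was wildtype replicate 5 at 42.8 CPM.

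**Figure D3:**
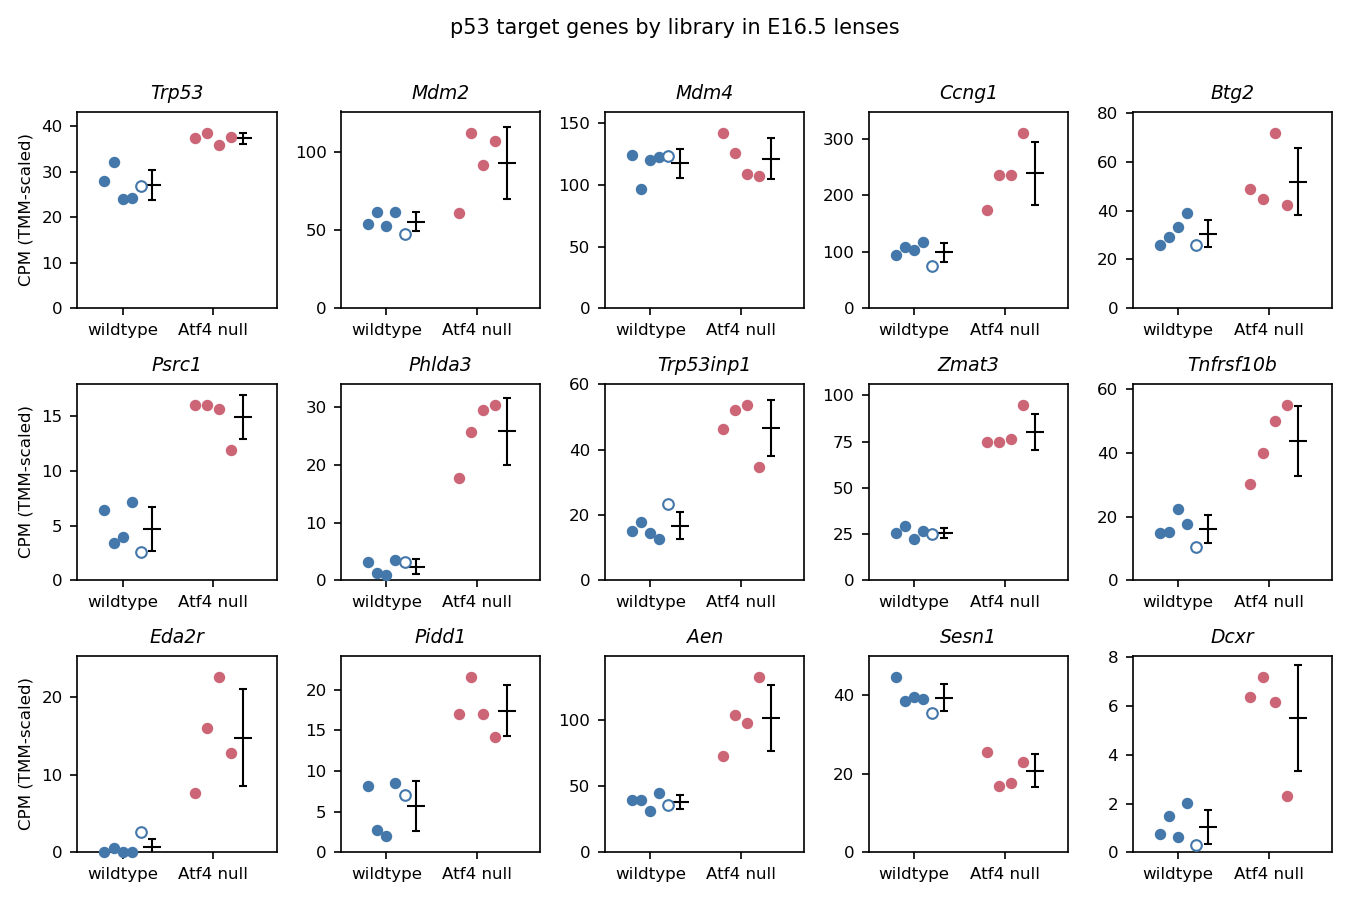
Level of 15 genes in each library, in CPM scaled by TMM factors: the 13 that passed the test, *Trp53* and *Mdm4*. Each point is 1 embryo, the open point is wildtype replicate 5, and bars give the mean and SD of each genotype. The 4 null libraries lie above all wildtype libraries for 11 of the 12 risen genes, and for *Mdm2* null replicate 1 does not.

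Of the 8 genes linked to cell death, the 4 that rose were *Eda2r*, *Tnfrsf10b*, *Pidd1* and *Aen*, and the median log2 fold change was 0.97. *Eda2r* (ENSMUSG00000034457, chrX:96320270-96420847), a receptor of the tumor necrosis factor family, was close to absent from wildtype lenses. It had 0, 5, 0, 0 and 24 counts in the wildtype, the 24 in wildtype replicate 5, and 77, 133, 206 and 88 counts in the null. In CPM the wildtype libraries were at most 2.57 and the null libraries at 7.67, 15.96, 22.6 and 12.8. The fitted log2 fold change was 4.44 ± 0.92 (SE) with all libraries and 6.43 ± 0.79 (SE) without wildtype replicate 5, and with so few wildtype counts its size depends on the prior count. The markers of muscle and mesenchyme were also highest in wildtype replicate 5, and their part in its *Eda2r* counts was not tested. Without null replicate 3 the log2 fold change of *Eda2r* was 4.16 and just missed the threshold.

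*Tnfrsf10b* (ENSMUSG00000022074, chr14:70004916-70021860), the mouse receptor for the death ligand TRAIL, was at 15.0, 15.2, 22.4, 17.8 and 10.4 CPM in the wildtype and at 30.2, 40.1, 49.9 and 55.2 CPM in the null, with a log2 fold change of 1.44 ± 0.24 (SE). *Fas*, the other classic death receptor on the list, did not move with it. Its wildtype libraries were at 9.63, 9.996, 7.53, 6.20 and 1.82 CPM and its null libraries at 2.59, 7.68, 3.18 and 9.90 CPM, and the difference of -0.27 ± 0.53 (log2, SE) did not pass the test. The lowest wildtype value of *Fas* was that of wildtype replicate 5, without which the wildtype libraries were at 6.20 to 9.996 CPM and the log2 fold change was -0.52, still short of the threshold. The genotypes overlapped in both cases, and an intron of *Fas* holds one of the matches shown above.

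*Aen* (ENSMUSG00000030609, chr7:78545602-78560957), an exonuclease that digests DNA in apoptotic cells, was at 39.4, 39.5, 31.1, 44.7 and 35.6 CPM in the wildtype and at 72.5, 103, 97.4 and 132 CPM in the null, a change of 1.41 ± 0.17 (log2, SE). *Pidd1* (ENSMUSG00000025507, chr7:141018026-141023938), the scaffold of a complex that activates a caspase, was at 8.22, 2.72, 1.98, 8.48 and 7.07 CPM in the wildtype. In the null it was at 16.9, 21.6, 17.0 and 14.1 CPM, and the log2 fold change was 1.61 ± 0.40 (SE). Neither gene showed overlap between the genotypes, and the call of *Pidd1* was kept in 12 of 16 other settings. *Apaf1*, the core of the apoptosome, was at 23.5 ± 6.07 CPM (SD, n = 5) in the wildtype and 34.1 ± 6.79 CPM (SD, n = 4) in the null, and its 0.53 ± 0.22 (log2, SE) did not pass the test. *Ei24* and *Perp*, which code for membrane proteins, were at 0.16 ± 0.14 and 0.32 ± 0.38 (log2 fold change, SE) and did not pass it either.

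None of the 5 genes for DNA repair and nucleotide supply passed edgeR's quasi-likelihood test without covariates on all 9 libraries, and their median log2 fold change was 0.27. At an unadjusted p below 0.05 there were 2 by that test and 2 by DESeq2 (*Polk* and *Ercc5*), and 1 by exactTest (*Polk*), and 0 passed with adjustment by either tool. The share of all genes at an unadjusted p was not counted, so nothing is read from these. With adjustment, 2.23% of all genes were higher and 3.67% lower by edgeR's test, so 0 of 5 is near that background. *Polk*, a polymerase that copies past damaged bases, was at 10.5, 4.94, 8.52, 14.9 and 17.9 CPM in the wildtype and at 21.5, 18.0, 16.9 and 27.5 CPM in the null. Wildtype replicate 5 reached into the null range, the log2 fold change was 0.88 ± 0.33 (SE), and without that library it was 1.11 ± 0.31 (SE) and passed. It also passed, at 1.18, with the replicate number as a block, a fit in which wildtype replicate 5 has no partner. *Ercc5*, a nuclease of nucleotide excision repair, had 0.38 ± 0.16 (log2, SE). The damage sensors *Xpc* and *Ddb2* had 0.14 ± 0.16 and -0.14 ± 0.47, and *Rrm2b*, which supplies deoxynucleotides outside S phase, had 0.27 ± 0.25 (log2 fold change, SE). In none of these repair genes did the genotypes stand clear of each other with all 9 libraries.

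In the last group, of 7 genes for metabolism and other functions, *Sesn1* fell, *Dcxr* rose and the other 5 did not pass the test. *Sesn1* (ENSMUSG00000038332, chr10:41685931-41784423) codes for a sestrin that restrains growth signalling through mTORC1 when leucine is scarce, and was the only gene of the list to fall. Its wildtype libraries were at 44.8, 38.5, 39.5, 39.1 and 35.4 CPM and its null libraries at 25.7, 16.9, 17.7 and 23.0 CPM. The groups did not overlap, the log2 fold change was -0.92 ± 0.18 (SE) with all libraries and -0.96 without wildtype replicate 5, and the call was kept in all 16 other settings. No match to the p53 consensus lay within 2500 bases of its start. *Dcxr* (ENSMUSG00000039450, chr11:120616047-120618147), a reductase of dicarbonyls and sugars, was low in both genotypes. It had 6, 12, 5, 16 and 3 counts in the wildtype and 64, 60, 56 and 16 in the null, or 0.770, 1.48, 0.618, 2.03 and 0.321 against 6.38, 7.20, 6.14 and 2.33 CPM. Null replicate 4 was only just above the highest wildtype library, and the call at 2.39 ± 0.62 (log2, SE) was kept in 8 of 15 other settings.

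*Ak1*, an adenylate kinase gene, was at 38.8, 23.6, 30.4, 32.5 and 32.0 CPM in the wildtype and at 40.0, 42.4, 43.9 and 49.1 CPM in the null. Its groups did not overlap, but the difference of 0.48 ± 0.17 (log2, SE) did not pass the test. *Rps27l*, a ribosomal protein gene with a match in an intron, had 0.76 ± 0.29 and overlapping groups. *Tigar*, which lowers glycolytic flux, had 0.59 ± 0.73 with a count of 0 in wildtype replicate 3, and *Fdxr*, a mitochondrial reductase gene, had 0.26 ± 0.43 (log2 fold change, SE). *Abhd4*, a lipid hydrolase gene, was the second most abundant of the list per length in the wildtype at 12.9 FPKM and had a log2 fold change of -0.30 ± 0.14 (SE).

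Before and after the change the genes of the list covered a wide range of levels per length. The median over the 34 was 3.22 FPKM in the wildtype and 5.86 FPKM in the null, and 7 genes were under 1 FPKM in the wildtype. *Phlda3* went from 0.924 to 9.98 FPKM, *Zmat3* from 2.25 to 7.01, *Eda2r* from 0.085 to 1.97 and *Dcxr* from 0.766 to 4.05. *Mdm2* went from 7.18 to 12.03 FPKM and *Sesn1* from 7.83 to 4.13. The genes with the largest fold changes were thus among the lowest in wildtype lenses, where the counts are few and the fold changes least precise.

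The risen genes did not all rank the null libraries in the same way. Their summed level was 573, 749, 766 and 849 CPM in null replicates 1 to 4 and 257 to 340.2 CPM in the wildtype, lowest in wildtype replicate 5. Null replicate 1 was the lowest null library for 7 of the 12 and the highest for 0, while null replicate 4 was the highest for 5 (among them *Ccng1*, *Phlda3* and *Aen*) and the lowest for the other 5 that did not have their lowest value in null replicate 1. Null replicate 1 also had the lowest share of lens markers among the null libraries and the highest share of retina markers, and null replicate 4 the highest and the lowest. The part of these shares was not tested either.

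**Figure D4:**
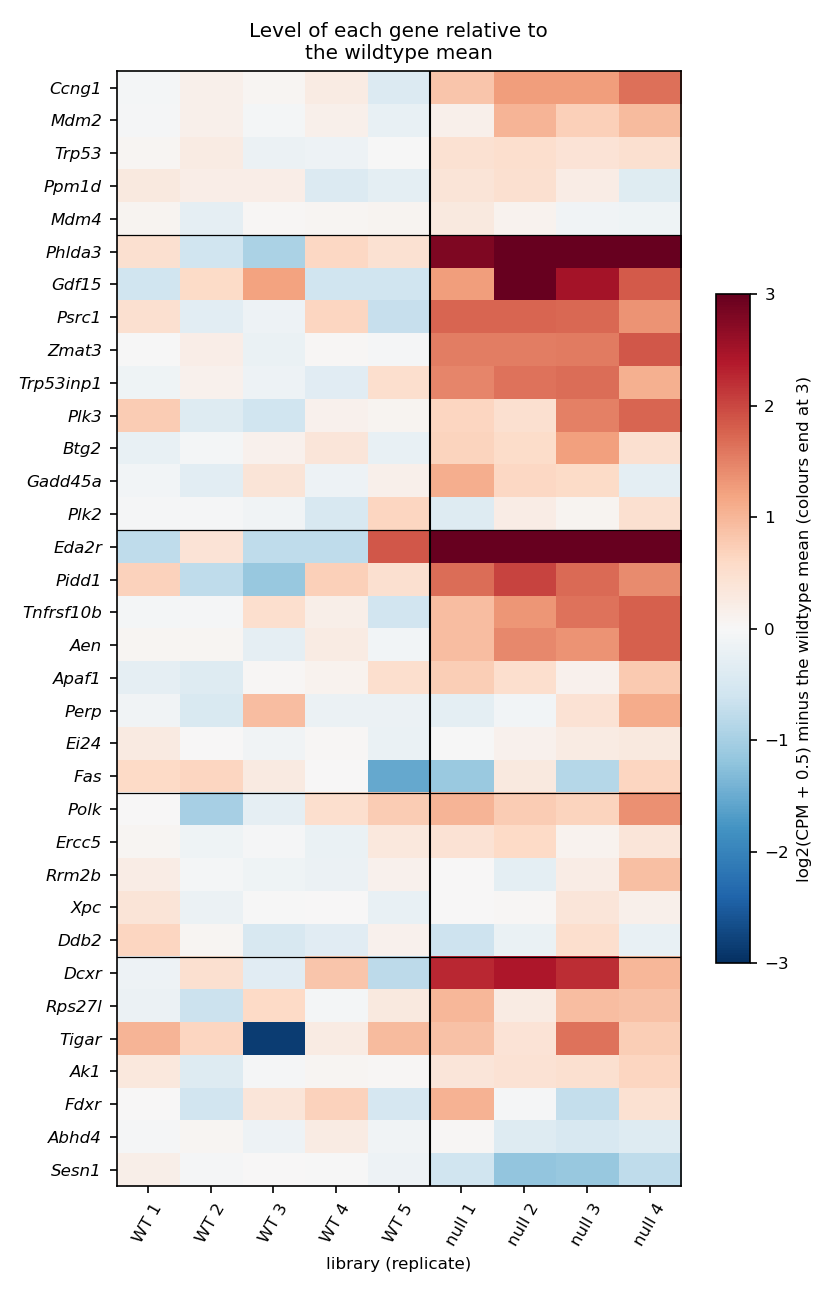
Level of the 34 genes in each library as log2(CPM + 0.5) minus the wildtype mean of the same quantity, grouped as in the plot of fold changes, with colours ending at 3. The null columns are red for *Phlda3*, *Zmat3*, *Trp53inp1* and *Eda2r* in all 4 libraries, *Sesn1* is blue in all 4, and *Eda2r* is also red in wildtype replicate 5.

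Other genes of the p53 network were measured in the same libraries. A second list of 47 known p53 targets held the cell cycle inhibitor gene *Cdkn1a* and the apoptosis genes left out above, and 43 of them were tested, *Dram1*, *Spata18*, *Cmbl* and *Lif* being too low. This list and the last one below were also chosen with earlier results of these data known, so their counts are a description. Of the 43, *Cdkn1a*, *Bbc3* and *Inka2* rose and *Mast4* fell, and the median log2 fold change was 0.02. Over all genes tested 2.23% were higher and 3.67% lower, so the 1 lower gene of 43 is near that background. *Cdkn1a*, which codes for the p21 inhibitor of cyclin-dependent kinases, was at 1.54, 1.73, 2.96, 1.52 and 8.78 CPM in the wildtype and at 33.7, 69.2, 51.4 and 54.6 CPM in the null. Its log2 fold change was 3.95 ± 0.47 (SE, with a Benjamini-Hochberg adjusted p = 0.000276 over all genes in edgeR's quasi-likelihood fit), and 4.74 without wildtype replicate 5.

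*Bbc3*, the gene of the pro-apoptotic protein PUMA, was at 5.26 ± 1.97 CPM (SD, n = 5) in the wildtype and 18.4 ± 6.78 CPM (SD, n = 4) in the null, with a log2 fold change of 1.80 ± 0.34 (SE, adjusted p = 0.00687, edgeR). *Inka2*, an inhibitor of a p21-activated kinase, had 3.10 ± 0.65 (log2, SE, adjusted p = 0.0118, edgeR). *Bax*, a pore-forming member of the same family as PUMA, was at 5.09 ± 0.618 CPM and 10.1 ± 3.77 CPM without overlap, and its 0.99 ± 0.33 (log2, SE, adjusted p = 0.103, edgeR) did not pass. *Pmaip1* had 0.80 ± 0.78 (log2, SE, adjusted p = 0.652, edgeR). The call of *Mast4*, a kinase gene at -0.48 ± 0.12 (log2, SE, adjusted p = 0.0285, edgeR), was kept in 10 of 16 other settings. Without wildtype replicate 5 the genes *Susd6* (0.89, adjusted p = 0.00602, edgeR) and *Slc12a4* (1.60, adjusted p = 0.000404, edgeR) were also higher, so 5 of the 42 then tested were, beside 3.37% of all genes. With all 9 libraries *Susd6* was at 0.70 (adjusted p = 0.0698, edgeR) and *Slc12a4* at 0.90 with overlapping groups (adjusted p = 0.257, edgeR), and neither passed.

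**Figure D5:**
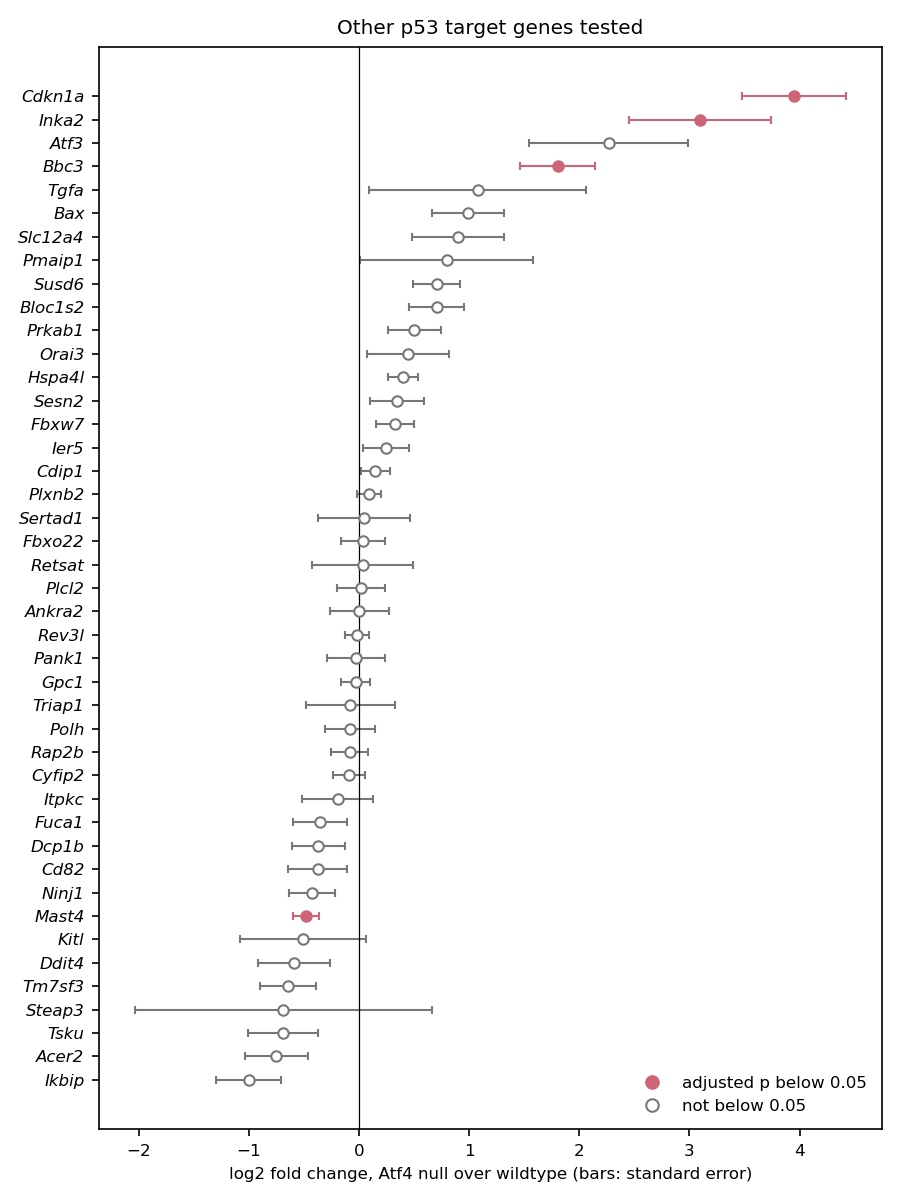
Log2 fold change of *Atf4* null over wildtype for the 43 other p53 targets tested, with bars for the standard error. Filled circles have an adjusted p below 0.05: *Cdkn1a*, *Inka2* and *Bbc3* to the right of 0 and *Mast4* to the left.

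The last list held 21 genes that act upstream of p53 or modify it, such as the damage kinases *Atm*, *Atr*, *Chek1* and *Chek2*. Of these 18 were tested, while *Cdkn2a*, *Trp63* and *Trp73* were too low. None rose by edgeR's quasi-likelihood test, DESeq2 or exactTest with adjustment. At an unadjusted p below 0.05 there were 2 higher by the first, 2 by DESeq2 and 0 by exactTest, and 2 lower by each. The share of all genes at an unadjusted p was not counted, so nothing is read from these. With adjustment, 2.23% of all genes were higher and 3.67% lower by edgeR's test. The 0 higher and 1 lower of the 18 are near that background. *Rps19bp1*, a regulator of the deacetylase SIRT1, is the gene directly downstream of *Atf4* in the annotation, next to the altered allele, whose part in its level was not tested. It fell from 23.3 ± 6.10 CPM (SD, n = 5) to 10.6 ± 3.89 CPM (SD, n = 4), with a log2 fold change of -1.13 ± 0.28 (SE, adjusted p = 0.0287, edgeR), a call kept in 10 of 16 other settings. It was at -0.98 without wildtype replicate 5 (adjusted p = 0.0385, edgeR). *Rpl11*, a ribosomal protein gene whose product binds MDM2, was then lower too (-0.43, adjusted p = 0.0256, edgeR). Without that library 2 of the 18 genes tested were thus lower, beside 4.96% of all genes. With all 9 libraries *Rpl11* was at -0.35 ± 0.13 (log2, SE, adjusted p = 0.154, edgeR) and did not pass. The median of the list was 0.03, near that of all genes.

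Reads of some genes of the list could be shared with neighbours. Of the 34 genes 11 share exon bases with another counted gene, in each case on the opposite strand, and the strand setting used in counting is not stated in the sources used here, although the count tables carry the letters rf in their names, which are not explained. Among the genes that passed the test, *Ccng1* shares 114 bases with *Nudcd2*, *Psrc1* shares 198 with *Gm12522* and *Sesn1* shares 548 with *Cep57l1*. *Nudcd2* and *Cep57l1* had log2 fold changes of 0.19 and -0.04 and did not pass the test, and *Gm12522* was too low to be tested.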

How the data were processed

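RNA of whole E16.5 lenses was sequenced from stranded libraries. The authors cleaned the reads with Trim Galore, took out ribosomal RN45S reads with HISAT2, aligned the remainder to GRCm39 and assigned reads to Ensembl release 104 genes with HTSeq. Versions of these tools are not given in the sources used here. What they deposited is a table of raw, whole-number counts for each library. HTSeq's 5 summary entries, 44.6% to 47.7% of all entries of a library, were set aside. Symbols, positions and exon lengths came from GENCODE vM39 by Ensembl identifier, and 54749 of 55416 identifiers had a symbol. Genotypes and replicate numbers were read from the titles. Each wildtype title carries a library name other than that of its counts, which leaves the wildtype numbering open but not the genotype.

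In edgeR 4.0.16 (R 4.3.3), filterByExpr kept 14903 genes, TMM factors scaled the 9 libraries, and a quasi-likelihood test compared the genotypes without covariates. Benjamini-Hochberg adjustment covered all genes tested, at a threshold of 0.05. The p-values weigh the difference between the genotypes against the spread between embryos. Depth was 7440807 to 8906996 gene counts per library. No library repeated another, since chi-square per degree of freedom was at least 7.70 in every pair. CPM use the TMM-scaled library size, and dividing by exon length in kilobases gave FPKM. Each standard error is the size of the log2 fold change fitted without the prior count, divided by the square root of the F statistic. The log2 fold changes printed include the prior count, so the standard error restates the test and is less exact where counts are few. The procedure was tested on simulated data, with an outcome that is not given here. How often it misses a change of a given size is therefore not stated. Alternatives were DESeq2 1.42.0, exactTest, library size alone, factors without crystallin genes, no filter, at least 10 counts in every library, the replicate number as a block and each library left out in turn, 16 other settings in all. All 34 genes are named, with the value of every library for those that passed the test and for *Trp53*, *Mdm2* and *Mdm4*. Of the other lists, genes that passed and *Cdkn1a*, *Bbc3*, *Bax* and *Pmaip1* are named, and *Susd6*, *Slc12a4* and *Rpl11* were named after their values were seen. The members and all lists were chosen with earlier results of these data known. Sites were searched with Python 3.11.15. One promoter sequence is not reported here.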

Additional observations from a re-analysis of the deposited data

Results flagged for a closer look

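Among 88 groups of libraries examined for the 34 genes and the named genes of the other lists, 8 held 1 library that lay far from the rest of its genotype by Dixon's test. Chance alone gives about 1 in 20 groups. The groups include *Susd6*, *Slc12a4* and *Rpl11*, named because they passed the test without wildtype replicate 5. Their values in that library are thus no independent find, and nothing is read from the count of 8. *Mdm4* was at 96.3 CPM in wildtype replicate 2 and at 120.1 to 124 CPM in the other wildtype libraries. *Perp* was at 17.2 CPM in wildtype replicate 3 and at 6.29 to 8.22 CPM in the others. *Psrc1* was at 11.9 CPM in null replicate 4 against 15.7 to 16.1 CPM in the other null libraries, whereas *Zmat3* was at 95.1 CPM in the same library against 74.8 to 76.3 CPM, so null replicate 4 was low for one and high for the other. *Eda2r* was at 2.57 CPM and *Cdkn1a* at 8.78 CPM in wildtype replicate 5, against at most 0.617 and 2.96 CPM in the other wildtype libraries. In that library *Slc12a4* was at 40.7 CPM against 8.27 to 10.9 CPM in the others, and *Rpl11* at 187 CPM against 256.1 to 272.1 CPM. That library also held the most muscle and mesenchyme markers, and their part in these values was not tested.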

How the results depend on the processing

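*Ccng1*, *Psrc1*, *Phlda3*, *Trp53inp1*, *Zmat3*, *Tnfrsf10b*, *Aen* and *Sesn1* passed the test in the same direction in every alternative that gave a value. Of 649 values for 41 genes under the alternatives, 603 kept their side of the threshold, 11 passed it and 35 fell short of it, and no called value changed sign. The signs of *Mdm4*, *Plk2*, *Perp*, *Rrm2b*, *Ddb2* and *Fdxr*, none of which passed the test, differed in at least 1 alternative. The number of genes of the p53 list that were higher was 12 in the analysis reported, 14 with DESeq2 and with exactTest, 15 with library size alone, 13 without a filter, 9 of 29 tested with at least 10 counts in every library, and 7 to 13 with a library left out, the lowest without null replicate 3. The number lower was 1 throughout. Over all genes, 333 higher became 562 with DESeq2 and 790 with library size alone (beside 439 lower), and 547 lower became 835 with DESeq2. With a library left out the ranges were 172 (without null replicate 2 or 3) to 488 (without wildtype replicate 5) higher and 355 (without null replicate 2) to 719 (without wildtype replicate 5) lower. Library size alone moved the median log2 fold change of all genes to 0.12, that of the p53 list from 0.58 to 0.71, of the other targets to 0.13 and of the upstream genes to 0.16. Among the other targets 5 were higher with DESeq2, exactTest, library size alone, no filter or the replicate block. There were 2 of 38 tested with at least 10 counts in every library, and 3 to 5 with a library left out. The number lower was 2 with DESeq2, exactTest and no filter, 0 with library size alone, and 0 to 1 with a library left out. Among the upstream genes the number lower was 0 with library size alone and 0 to 2 with a library left out. The cause of these shifts was not tested, except that library size alone leaves the composition of the libraries uncorrected.

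Replicate numbers did not pair the libraries: the correlations of same-numbered libraries' deviations were -0.14, -0.02, -0.03 and 0.01. With the replicate number as a block, 11 genes of the p53 list were higher and 1 lower. Counts were lowest for *Eda2r*, *Gdf15*, *Dcxr* and *Phlda3*, whose wildtype libraries held at most 29 counts each. The share of counting error in their spread was not tested.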
